A study of Mus musculus with 8 samples.

Results

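Cell cycle and replication genes were examined in mouse hemogenic endothelium, the endothelial cell stage from which blood cells emerge, with and without induction of the transcription factor RUNX1. The genes were taken from a list of 49 symbols: 8 cyclins, 4 cyclin-dependent kinases, 6 kinase inhibitors, 6 genes of the E2F and Rb families, 12 S phase genes, 12 mitotic genes and a placeholder entry, Foxm1-dummy, that names no gene. All 48 named genes were measured and passed the filter on dim probes, among 14498 genes tested. Of the 48, 46 were well above background on all 6 replicate arrays. Ccne2 was above background on 2 of the 3 uninduced arrays and Cdk6 on 1 of the 3, and both were above it on all 3 induced arrays.

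The induced group (DOX+) was iRUNX1 hemogenic endothelium, in which a Tet-on system drives Runx1 in the presence of doxycycline. It received doxycycline overnight at 0.3 µl/ml, and the labels describe it as expressing Runx1. The uninduced group (DOX-) was the same iRUNX1 culture without doxycycline, labelled as control. All cells were of strain C57BL/6 and were derived from embryonic stem cells. They passed through 3.25 days as embryoid bodies, 2 rounds of selection for the receptor Flk-1 and 2 days of culture as hemogenic endothelium. The labels name no other allele and do not say whether the cells keep their own Runx1 gene, whether the line is 1 clone or whether uninduced cultures received a vehicle. Total RNA was hybridised to 1-colour Agilent arrays, with 3 biological replicates per group and 1 further array per group titled as a technical repeat, which was kept out of the tests. The labels do not say which replicate the technical repeats belong to.

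The cell cycle is driven by cyclins, which bind and activate cyclin-dependent kinases. D-type cyclins with Cdk4 or Cdk6 and E-type cyclins with Cdk2 phosphorylate the Rb family, which releases E2F transcription factors to switch on the genes for DNA replication. Cyclin A acts in S phase and later, and B-type cyclins with Cdk1 drive mitosis. Inhibitors of the INK4 family (Cdkn2a to Cdkn2d) block Cdk4 and Cdk6, and those of the Cip/Kip family (Cdkn1a, Cdkn1b) act on cyclin-kinase complexes more widely. During blood development, cells that leave the endothelium acquire a blood identity, and their cycling state changes with stage.

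Levels are log2 signals relative to the 75th percentile of the same array, so 0 is that percentile and 1 unit is a doubling, and they are compared only between arrays for the same probe. The 75th percentile of the signal was 973, 595 and 543 on induced arrays 1 to 3, against 699, 378 and 338 on uninduced arrays 1 to 3, so it was higher on the induced array of every pair. Induced arrays correlated with each other at 0.982 to 0.989 and uninduced arrays at 0.974 to 0.989. The summed level of 10 blood markers was 16.8 to 33.0 times the 75th percentile on induced arrays, against 2.56 to 4.62 times on uninduced arrays, and 6 of the 10 rose (Spn, Myb, Gfi1, Ikzf1, Coro1a and Was) while 0 fell. With the replicate number as a block 7 rose, Spi1 being the seventh. Ptprc, Itga2b and Gfi1b passed in neither fit, with differences of -0.19, 0.63 and 0.97. Myb, Ikzf1 and Spi1 passed the filter only through the induced arrays, so their rises are given only as a description. Uninduced arrays with signal well above background numbered 2 for Myb, 1 for Ikzf1 and 0 for Spi1. For 10 endothelial markers the summed level was 82.4 to 203 times on induced and 168 to 412 times on uninduced arrays, and 2 fell (Tek and Eng) while 0 rose. With the block 6 fell (Tek, Eng, Esam, Emcn, Cldn5 and Egfl7). Smooth muscle markers were at a summed level of 500 to 644 times on induced arrays and 741 to 838 times on uninduced arrays (6 of 7 tested, 0 past the test, and Acta2 fell with the block). Cardiac markers were at 6.29 to 24 times on induced and 14.1 to 59.6 times on uninduced arrays (6 of 7 tested, Tnnc1 fell, and Tnnt2 and Actc1 also fell with the block). Pluripotency markers were at 1.40 to 1.57 times on induced and 1.62 to 2.33 times on uninduced arrays (5 of 7 tested, 0 past the test in either fit). Myh11, Myl7, Pou5f1 and Sox2 did not reach the filter. The Runx1 transcript could not be used to check the labels, since the position of its probes relative to the inducible construct is not given. The kept Runx1 probe differed by -1.03 (SE 0.32, limma adjusted p = 0.126, or 0.0214 with the replicate number as a block). It was dim, at -6.14, -5.71 and -4.95 on induced arrays 1 to 3, against -4.71, -4.72 and -4.28 on uninduced arrays 1 to 3. Well above background on 2 induced and 3 uninduced arrays, it passed the filter through the uninduced group. Its difference is therefore given only as a description.

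Among the 48 genes, 1 rose on induction, the kinase inhibitor gene Cdkn2d, and 0 fell (limma, Benjamini-Hochberg adjusted p under 0.05 over all genes). This is 2.08% of the 48, and over all genes tested 6.31% passed, 4.15% higher and 2.17% lower. Replicate numbers were read as pairs because same-numbered arrays deviated from their group means together, which was judged from these same data. With the number as a block 7 of the 48 rose and 0 fell: Cdkn2d, Bub1b, Cdk6, Ccne1, E2f2, E2f8 and Rrm1. That is 14.6% of the 48, beside 16.2% of all genes passing in either direction with the block, 9.37% higher and 6.81% lower. Cdk6 passed the filter through the induced arrays, so it is given only as a description. Among the 46 genes above background on all 6 arrays the block called 6, beside 14.9% in either direction and 8.12% higher over the 13477 genes of all tested that met the same condition. The fit with the block was repeated with a replicate number left out, a choice made after seeing the data. Cdkn2d passed in 3 of 3 of these fits, Bub1b in 2, Ccne1 and E2f2 in 1, and E2f8 and Rrm1 in 0. Cdk6 passed in 3 of 3 as well, but this is no support, since it met the filter through the induced arrays. At an unadjusted p under 0.05 in the fit with no block, 15 were higher (31.2% of the 48, against 13.9% of all genes) and 0 lower (7.77% of all genes). The share of the 48 past the adjusted threshold in either direction was below that of all genes in both fits. Counted as rises alone, it was below that of all genes with no block (2.08% against 4.15%). With the block it was above (14.6% against 9.37%), Cdk6 being among the 7.

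Most of the genes had small positive differences. The difference (induced minus uninduced) was above 0 for 43 of the 48 genes, 89.6% of them, against 59% of all genes tested. The median difference over the 48 was 0.36, against 0.09 over all genes. For 32 genes (66.7%) the induced array was higher in all 3 same-numbered pairs, against 37.8% of all genes, and for 2 (Cdkn2c and Tyms) it was lower in all 3, against 21.8% of all genes. For 21 genes (43.8%) every induced array lay above every uninduced array, against 19.6% of all genes, and for 0 genes the reverse held, against 8.71% of all genes. The SE of a difference ranged from 0.13 to 0.54 with a median of 0.19, and 37 of the 48 differences were larger than their own SE. Without Ccne2 and Cdk6, 41 of 46 differences were above 0 (89.1%), the median was 0.34 and 20 genes did not overlap (43.5%). Over the 13477 genes well above background on all 6 arrays, 58.5% were above 0, the median was 0.08 and 19.0% did not overlap with induced above. Of the 46, Cdkn2d alone differed by at least 2-fold, beside 1035 of the 13477.

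The size of these differences was not the same in the 3 pairs. The median over the 48 genes was 0.17 in replicate 1, 0.29 in replicate 2 and 0.48 in replicate 3, beside 0.09, 0.06 and 0.11 over all genes. The 12 S phase genes had a median of 0.03 in replicate 1, 0.37 in replicate 2 and 0.50 in replicate 3. The CDK inhibitors had 0.53 in replicate 1, 0.17 in replicate 2 and 0.15 in replicate 3. Between the 2 technical repeat arrays, 40 of the 48 genes were higher in the induced one (83.3%, against 63.4% of all genes), with a median of 0.69 against 0.26 over all genes. The induced technical repeat correlated with the induced arrays at 0.968 to 0.981, below the 0.982 to 0.989 among those arrays. The uninduced one correlated with the uninduced arrays at 0.982 to 0.992. The blood markers and the 75th percentile given above also differed between the groups, and their part in the members' differences was not tested. In RNA from whole cultures, a change in the number of cycling cells and a change in RNA per cell cannot be told apart.

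**Figure D1:**
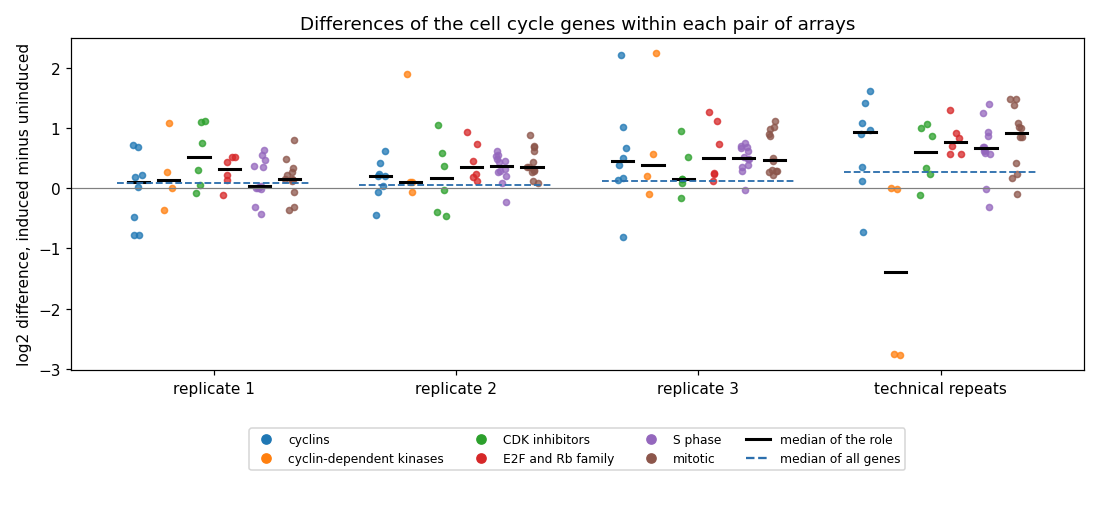
Log2 difference, induced minus uninduced, of each of the 48 genes (points, coloured by role) within each same-numbered pair of arrays and between the technical repeats, with role medians as black bars and the median of all genes as a dashed line. The 12 S phase genes have a median of 0.03 in replicate 1 and 0.50 in replicate 3, and Cdk2 and Cdk6 lie at -2.76 and -2.77 in the technical repeats.

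The scaling sets where 0 lies. Centring each array on its median put the all-gene median at 0.25, and scaling to the 4 brightest spike-in probes put it at 1.21, because the 75th percentile stood higher over the spike-ins in induced arrays by 1.12 ± 0.44 (SD, n = 3 pairs). Of the genes called, 65.7% rose with the 75th percentile, 77.2% with median centring and 98.5% with spike-ins. These scalings add a constant per array, so they leave the gap between the median of the 48 genes and that of all genes, 0.27, as it is. That gap was 0.18 without uninduced replicate 3 and 0.35 with the technical repeats averaged with replicate 1. It was 0.38 with no filter on dim probes. The authors' deposited table read by its column names gave a gap of 0.044. In that reading some columns named for induced arrays tracked uninduced arrays, and the reverse, so the groups were mixed. Read by the array tracked, the table gave a gap of 0.26. Quantile normalization, which does not add a constant per array, gave a gap of 0.23. With it 36 of the 48 differences were above 0, beside 57.3% of all genes. With spike-ins all 48 differences were above 0, beside 96.4% of all genes, so Ccnd1, Ccnd2, Cdkn2c, Tyms and Mad2l1, which are below 0 with the 75th percentile, were above it.

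**Figure D2:**
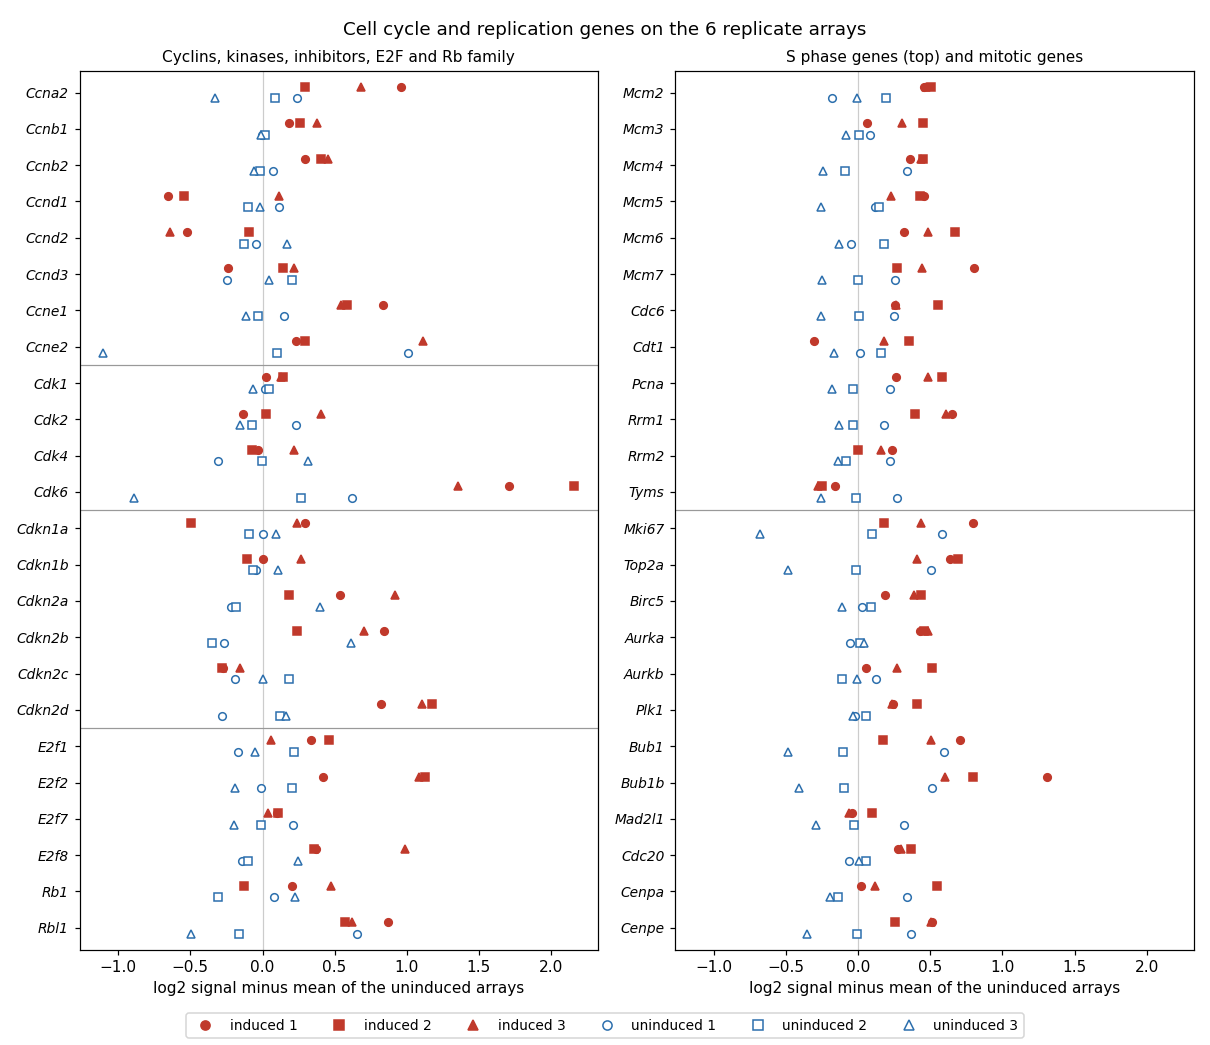
Log2 signal of each gene on the 3 induced (filled) and 3 uninduced (open) arrays, minus the mean of its uninduced arrays, with one row per gene and lines between roles. For 21 of the 48 genes all 3 induced arrays lie right of all 3 uninduced arrays.

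Promoter sequence is shown for the 7 members that passed with the block, and for Mcm6 and Cdk1, which hold E2F matches and did not pass. The 250 bases before the start of each gene were read from RefSeq's table for GRCm38.p6, in which 41 of the 48 genes had an entry; Aurkb, Ccna2, Ccnd1, Ccnd2, Ccne2, Mcm4 and Rb1 had none. Each runs 5′ to 3′ on the gene's strand, and capitals mark the motifs searched on both strands. The E2F motif was TTTCCCGC or TTTCGCGC or TTTGCCGC or TTTGGCGC. The cell cycle homology region (CHR, bound in late cell cycle genes) was TTTGAA. The CCAAT box, bound by NF-Y, was searched as such, and the RUNX motif was TGTGGT or else TGCGGT. The windows are chr9:21291210-21291459 on the minus strand for Cdkn2d, chr7:38107491-38107740 on the minus strand for Ccne1, chr4:136172024-136172273 on the plus strand for E2f2, chr7:48881597-48881846 on the minus strand for E2f8, chr2:118597961-118598210 on the plus strand for Bub1b, chr7:102441445-102441694 on the plus strand for Rrm1, chr5:3343643-3343892 on the plus strand for Cdk6, chr1:128359706-128359955 on the minus strand for Mcm6 and chr10:69352913-69353162 on the minus strand for Cdk1.
Cdkn2d: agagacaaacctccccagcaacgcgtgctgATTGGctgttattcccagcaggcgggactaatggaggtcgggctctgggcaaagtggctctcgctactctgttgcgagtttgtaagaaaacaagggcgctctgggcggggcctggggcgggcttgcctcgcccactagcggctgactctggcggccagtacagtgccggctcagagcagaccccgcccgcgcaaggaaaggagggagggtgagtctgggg
Ccne1: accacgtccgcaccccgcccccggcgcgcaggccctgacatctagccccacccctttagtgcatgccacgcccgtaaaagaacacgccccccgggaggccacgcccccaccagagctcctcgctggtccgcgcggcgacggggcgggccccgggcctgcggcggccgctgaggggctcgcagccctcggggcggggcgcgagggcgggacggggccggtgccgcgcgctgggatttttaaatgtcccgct
E2f2: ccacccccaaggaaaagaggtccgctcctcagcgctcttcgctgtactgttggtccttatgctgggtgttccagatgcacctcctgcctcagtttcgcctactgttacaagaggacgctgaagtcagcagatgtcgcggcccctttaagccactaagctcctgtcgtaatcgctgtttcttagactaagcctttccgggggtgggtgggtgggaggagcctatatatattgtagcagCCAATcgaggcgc
E2f8: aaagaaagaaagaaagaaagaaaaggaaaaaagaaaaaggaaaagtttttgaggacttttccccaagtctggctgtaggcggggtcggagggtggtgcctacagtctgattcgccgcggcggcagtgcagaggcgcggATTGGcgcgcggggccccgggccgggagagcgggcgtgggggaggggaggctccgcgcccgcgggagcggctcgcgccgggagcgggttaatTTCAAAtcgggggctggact
Bub1b: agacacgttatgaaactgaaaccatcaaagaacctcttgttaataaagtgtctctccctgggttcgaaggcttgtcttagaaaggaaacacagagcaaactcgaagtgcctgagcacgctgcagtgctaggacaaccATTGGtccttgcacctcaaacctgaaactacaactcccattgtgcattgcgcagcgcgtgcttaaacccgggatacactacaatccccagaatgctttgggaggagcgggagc
Rrm1: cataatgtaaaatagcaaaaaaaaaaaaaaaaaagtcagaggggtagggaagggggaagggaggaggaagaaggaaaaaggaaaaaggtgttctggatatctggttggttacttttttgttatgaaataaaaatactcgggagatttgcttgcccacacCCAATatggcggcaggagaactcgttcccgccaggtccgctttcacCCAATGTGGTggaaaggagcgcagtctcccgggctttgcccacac
Cdk6: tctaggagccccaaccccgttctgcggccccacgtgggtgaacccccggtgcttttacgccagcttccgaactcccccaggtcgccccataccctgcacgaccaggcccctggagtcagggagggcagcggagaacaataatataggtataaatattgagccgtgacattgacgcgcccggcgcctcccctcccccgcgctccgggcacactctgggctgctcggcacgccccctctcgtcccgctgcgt
Mcm6: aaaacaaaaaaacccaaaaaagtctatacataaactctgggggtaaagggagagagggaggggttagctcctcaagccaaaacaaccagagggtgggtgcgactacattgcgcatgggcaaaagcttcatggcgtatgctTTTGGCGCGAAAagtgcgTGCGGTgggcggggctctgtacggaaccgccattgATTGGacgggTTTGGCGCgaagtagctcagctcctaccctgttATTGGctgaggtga
Cdk1: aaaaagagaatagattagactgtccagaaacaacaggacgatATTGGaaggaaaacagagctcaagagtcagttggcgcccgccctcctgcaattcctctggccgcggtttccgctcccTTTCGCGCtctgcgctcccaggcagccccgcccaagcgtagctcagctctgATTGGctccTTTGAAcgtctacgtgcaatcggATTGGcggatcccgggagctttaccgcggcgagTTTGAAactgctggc

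Of the 41 promoters, 9 held an E2F match (22%, against 1.91% of all 27025 promoters of the same length): Cdc6, Cdk1, Cdk2, Cdkn2a, E2f7, Mcm5, Mcm6, Mcm7 and Rbl1. A CHR match was in 8 (19.5%, against 16.3% of all), a CCAAT box in 26 (63.4%, against 34.5%) and a RUNX match in 7 (17.1%, against 18.7%), those of Birc5, Cdk4, Cenpa, Mcm3, Mcm6, Plk1 and Rrm1. Among S phase genes, 4 of 11 promoters held an E2F match and 8 of 11 a CCAAT box. Among mitotic genes, 0 of 11 held an E2F match, 3 a CHR match and 9 a CCAAT box. Of the members printed, Cdkn2d, E2f2, E2f8 and Bub1b hold a CCAAT box, E2f8 also a CHR match, and Ccne1 and Cdk6 none of the motifs. Rrm1 holds 2 CCAAT boxes and a RUNX match, which shares its first base with the second CCAAT box. Mcm6 holds 3 E2F matches, the first 2 of which overlap on opposite strands, a RUNX match and 2 CCAAT boxes, and Cdk1 holds an E2F match, 2 CHR matches and 3 CCAAT boxes. A match describes the letters and is not a measured binding site, and a window without one says nothing of the factor.

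Cdkn2d, which encodes the INK4 inhibitor p19 of Cdk4 and Cdk6, was the member that rose. Its level was 4.15, 4.50 and 4.43 on induced arrays 1 to 3, against 3.04, 3.45 and 3.49 on uninduced arrays 1 to 3. All induced arrays lay above all uninduced ones, by 1.1, 1.05 and 0.94 within the pairs and by 1.07 between the technical repeats. The difference was 1.03 (SE 0.19), 2.04-fold, with a limma adjusted p of 0.026, or 0.0067 with the block. Leaving out an induced or uninduced array gave 0.89 to 1.14, and the adjusted p was 0.081 without induced replicate 2, 0.088 without induced replicate 3, 0.085 without uninduced replicate 2 and 0.055 without uninduced replicate 3. It passed in 14 of 22 other settings, all 3 fits with the block and a replicate number left out among them.

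The other 5 inhibitors did not pass in either fit. Cdkn2a, whose locus encodes both p16 and p19Arf, differed by 0.55 (SE 0.26, limma adjusted p = 0.278, or 0.053 with the block). It was at 3.70 ± 0.37 in induced and 3.15 ± 0.35 in uninduced cells (SD, n = 3 each), higher in all 3 pairs, and a second kept probe of the same transcript differed by -0.22. Cdkn2b, which encodes p15, was at 2.18 ± 0.31 in induced and 1.58 ± 0.54 in uninduced cells, with pair differences of 1.11, 0.59 and 0.09. Cdkn2c, which encodes p18, was at -1.09 ± 0.07 in induced and -0.85 ± 0.19 in uninduced cells and lower in all 3 pairs. The Cip/Kip genes Cdkn1a (p21) and Cdkn1b (p27) differed by 0.01 (SE 0.24) and 0.05 (SE 0.16). A second Cdkn1a probe, designed on another transcript, differed by -0.91 (SE 0.29, limma adjusted p over probes 0.173).

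Among the 8 cyclins 0 passed without the block, and Ccne1 rose with it. Ccne1, cyclin E1, which acts with Cdk2 at entry into S phase, was at 4.13, 3.88 and 3.84 on induced arrays 1 to 3, against 3.45, 3.26 and 3.18 on uninduced arrays 1 to 3. The groups did not overlap, and the pair differences of 0.68, 0.62 and 0.66 were close to each other. The difference was 0.65 (SE 0.16, limma adjusted p = 0.062, or 0.022 with the block). With the block and without replicates 1, 2 or 3 the adjusted p was 0.086, 0.103 and 0.048. The gene of the other E-type cyclin, Ccne2, was dim and uneven, with pair differences of -0.77, 0.19 and 2.21 (fitted difference 0.55, SE 0.54).

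The S and M phase cyclins were higher in all 3 pairs with no overlap between the groups, and did not pass. Ccna2 was at 4.06 ± 0.33 in induced and 3.42 ± 0.29 in uninduced cells (difference 0.65, limma adjusted p = 0.180, or 0.078 with the block). Ccnb1 was at 4.55 ± 0.10 in induced and 4.28 ± 0.02 in uninduced cells, and Ccnb2 at 4.63 ± 0.08 in induced and 4.25 ± 0.07 in uninduced cells (SD, n = 3 each). The 3 kept Ccnb1 probes disagreed in sign, at 0.27, 0.25 and -0.26. The D-type cyclins, which link growth signals to Cdk4 and Cdk6, had no positive shift of this size. Ccnd1 differed by -0.36 (SE 0.23) with pair differences of -0.77, -0.45 and 0.14, and Ccnd2 by -0.42 (SE 0.19) with -0.48, 0.04 and -0.82. Ccnd3 was at 6.60 ± 0.24 in induced and 6.56 ± 0.23 in uninduced cells, a difference of 0.04 (SE 0.19).

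Of the 4 kinases 0 passed without the block, and Cdk6, near background in uninduced cells, passed with it (limma adjusted p = 0.012, against 0.063 without it). Cdk6, a partner of D-type cyclins that is used in blood cells, was at -3.93, -3.48 and -4.28 on induced arrays 1 to 3, against -5.02, -5.37 and -6.53 on uninduced arrays 1 to 3. Its groups did not overlap, and the fitted difference was 1.74 (SE 0.42), whose size depends on signals near background. The Cdk6 probe passed the filter through the induced arrays, so its p-values and lack of overlap are given only as a description. The signal was close to background, with 1 of 3 uninduced arrays well above it, and the technical repeats ran the other way, at -7.64 in the induced and -4.87 in the uninduced one. The probe for Cdk2, the partner of cyclins E and A, was also far lower on the induced technical repeat, at -2.03 against 0.73 on the uninduced one. Its 3 replicates were 0.49, 0.65 and 1.03 in induced and 0.86, 0.55 and 0.47 in uninduced cells, a difference of 0.10 (SE 0.20). Cdk1, the mitotic kinase, differed by 0.10 (SE 0.13) and Cdk4 by 0.04 (SE 0.20). The 3 kept Cdk1 probes disagreed in sign, at 0.10, -0.09 and -0.21.

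Among the 6 E2F and Rb family genes 0 passed without the block, and E2f2 and E2f8 rose with it. E2f2, an activating E2F, was at 1.90, 2.60 and 2.56 on induced arrays 1 to 3, against 1.46, 1.68 and 1.29 on uninduced arrays 1 to 3, with no overlap. The difference was 0.88 (SE 0.23, limma adjusted p = 0.086, or 0.039 with the block), and the pairs differed by 0.44, 0.93 and 1.27. With the block and a replicate number left out, the difference was 0.68 to 1.1 and the adjusted p 0.043 to 0.133. E2f8, an atypical E2F that represses E2F targets, was at 2.32, 2.31 and 2.94 on induced arrays 1 to 3, against 1.81, 1.85 and 2.20 on uninduced arrays 1 to 3. Its groups did not overlap either, and the difference was 0.57 (SE 0.23, limma adjusted p = 0.209, or 0.041 with the block). The adjusted p was 0.112 to 0.128 with the block and a replicate number left out, so its call rests on all 3 pairs.

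The other members of the family did not pass. E2f1, also an activator, differed by 0.29 (SE 0.18), and E2f7, the second atypical E2F, by 0.08 (SE 0.16), with a further E2f7 probe at -0.28. Rb1, the retinoblastoma protein gene, was at 1.62 ± 0.30 in induced and 1.43 ± 0.28 in uninduced cells, with pair differences of 0.13, 0.18 and 0.25. Rbl1, which encodes the related p107, differed by 0.69 (SE 0.30, limma adjusted p = 0.249, or 0.079 with the block), and its second kept probe by 0.65. The median of the 6 genes was 0.43, and all 6 differences were above 0, beside 59% over all genes.

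**Figure D3:**
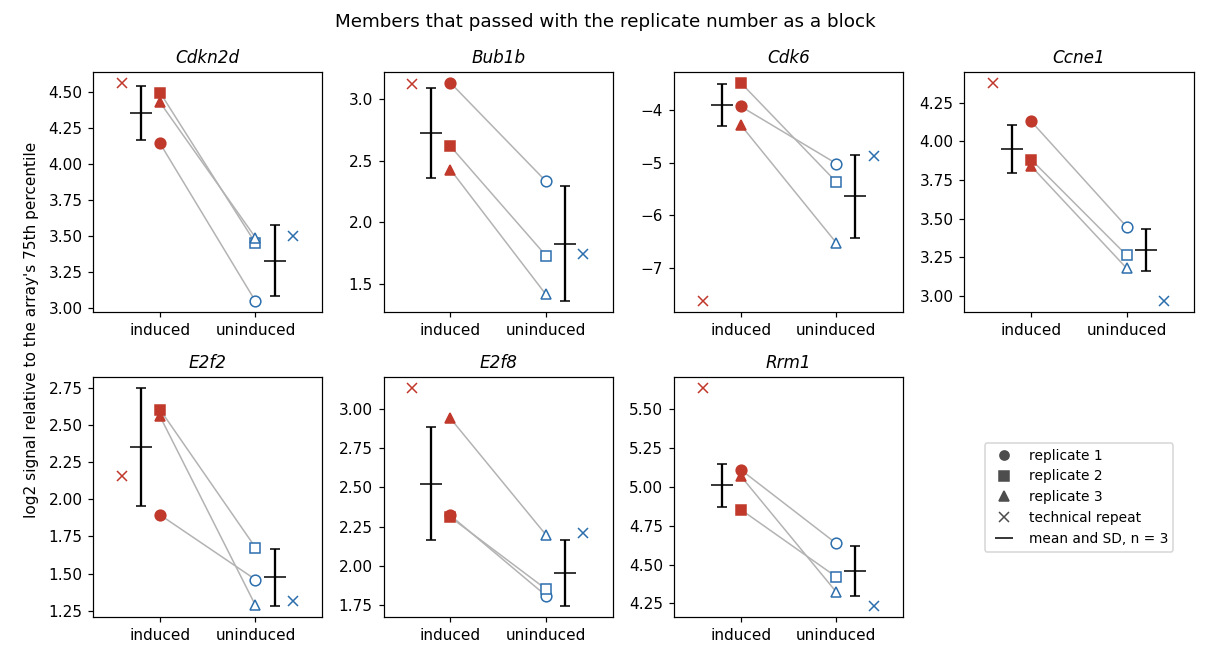
Log2 signal relative to the array's 75th percentile for the 7 genes that passed with the replicate number as a block, on induced (left, filled) and uninduced (right, open) arrays, with lines joining replicate numbers, group means ± SD and technical repeats as crosses. The induced arrays lie above the uninduced ones in every panel. Cdk6 was well above background on 1 of 3 uninduced arrays, and its technical repeats, at -7.64 induced and -4.87 uninduced, run the other way.

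Of the 12 S phase genes 0 passed without the block and Rrm1 rose with it, while 11 of 12 differences were above 0 (59% over all genes) and 8 genes had no overlap between the groups (19.6% over all genes). Rrm1, the large subunit of ribonucleotide reductase, which makes deoxynucleotides, was at 5.11, 4.85 and 5.07 on induced arrays 1 to 3, against 4.64, 4.42 and 4.32 on uninduced arrays 1 to 3. The difference was 0.55 (SE 0.16, limma adjusted p = 0.103, or 0.048 with the block). With the block and a replicate number left out the adjusted p was 0.119 to 0.152, above the threshold in each of the 3 fits. Its partner subunit Rrm2 differed by 0.13 (SE 0.16), and Tyms, thymidylate synthase, by -0.23 (SE 0.17) with all 3 pairs lower.

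The 6 Mcm genes encode the replicative helicase that unwinds DNA, and their differences lay between 0.27 (Mcm3) and 0.50 (Mcm7). Mcm6 was at 5.81, 6.16 and 5.98 on induced arrays 1 to 3, against 5.44, 5.68 and 5.36 on uninduced arrays 1 to 3. All induced arrays were above the uninduced ones, and the difference of 0.49 (SE 0.16) had a limma adjusted p of 0.152, or 0.056 with the block. Mcm2, Mcm4, Mcm5 and Mcm7 likewise did not overlap between the groups, with differences of 0.48, 0.41, 0.37 and 0.50. Mcm3 overlapped, with a pair difference of -0.01 in replicate 1 and 0.44 and 0.39 in the others.

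Cdc6 and Cdt1 load the helicase onto origins. Cdc6 was at 0.65 ± 0.17 in induced and 0.29 ± 0.25 in uninduced cells, without overlap (difference 0.35, SE 0.18), although replicate 1 differed by 0.002. Cdt1 differed by 0.08 (SE 0.21), with -0.31 in replicate 1. Pcna, the sliding clamp of DNA polymerases, was at 5.59, 5.92 and 5.82 on induced arrays 1 to 3, against 5.55, 5.30 and 5.15 on uninduced arrays 1 to 3, and differed by 0.44 (SE 0.17, limma adjusted p = 0.202, or 0.139 with the block). In replicate 1 the Pcna values lay 0.04 apart, and in replicates 2 and 3 they lay 0.61 and 0.66 apart.

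Of the 12 mitotic genes 0 passed without the block and Bub1b rose with it, and 11 of 12 differences were above 0, beside 59% over all genes. Bub1b, which encodes the spindle checkpoint protein BubR1, was at 3.14, 2.62 and 2.43 on induced arrays 1 to 3, against 2.34, 1.73 and 1.41 on uninduced arrays 1 to 3. The pairs differed by 0.80, 0.89 and 1.01, and the lowest induced array lay just above the highest uninduced one. The difference was 0.90 (SE 0.29, limma adjusted p = 0.142, or 0.010 with the block). In both groups replicate 1 was the highest array and replicate 3 the lowest, and the SE was 0.12 with the block. The adjusted p with the block was 0.058 without replicate 2, 0.044 without replicate 1 and 0.018 without replicate 3.

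Aurka, a kinase of the centrosome and spindle, was at 4.43, 4.46 and 4.49 on induced arrays 1 to 3, against 3.95, 4.02 and 4.04 on uninduced arrays 1 to 3. Its difference of 0.46 (SE 0.13) had a limma adjusted p of 0.099, or 0.056 with the block, and did not pass. Cdc20, an activator of the anaphase-promoting complex, Plk1, a mitotic kinase, and Birc5, which encodes survivin of the chromosomal passenger complex, also had no overlap, with differences of 0.31, 0.30 and 0.33. The 2 other Birc5 probes differed by 0.03 and 0.04.

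Mki67, the proliferation marker Ki-67, was at 5.29, 4.67 and 4.93 on induced arrays 1 to 3, against 5.08, 4.59 and 3.82 on uninduced arrays 1 to 3. The groups overlapped, since uninduced replicate 1 lay above 2 of the induced arrays, and the difference of 0.47 (SE 0.34) had a limma adjusted p of 0.453. It was 0.13 without uninduced replicate 3 and 0.76 without uninduced replicate 1. Top2a, the topoisomerase that untangles chromosomes, differed by 0.58 (SE 0.26), and the checkpoint kinase gene Bub1 by 0.46 (SE 0.30), both with overlap. Without uninduced replicate 3 they differed by 0.34 (Top2a) and 0.22 (Bub1), and without uninduced replicate 1 by 0.83 and 0.76. The centromere genes Cenpe and Cenpa differed by 0.42 (SE 0.21) and 0.23 (SE 0.22), and Cenpa by 0.067 without induced replicate 2 and 0.39 without uninduced replicate 1. Aurkb, the kinase of the passenger complex, was at -2.84 ± 0.23 in induced and -3.12 ± 0.12 in uninduced cells. Mad2l1, a checkpoint component, differed by -0.01 (SE 0.19), and its 2 other kept probes by -0.47 and -0.52.

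**Figure D4:**
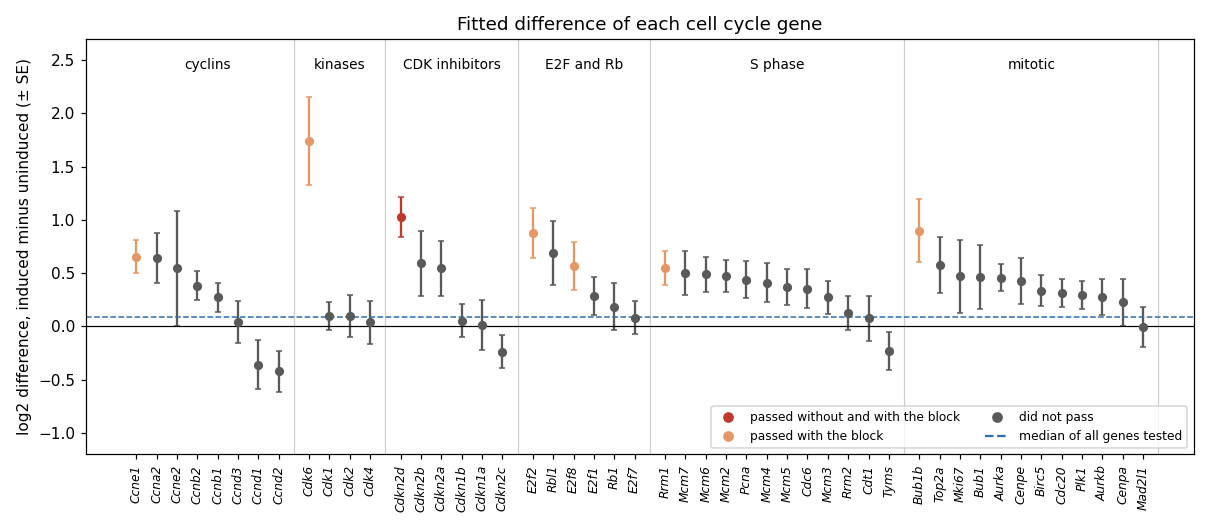
Fitted log2 difference, induced minus uninduced, with its SE for each of the 48 genes by role, coloured by whether the gene passed without and with the block, with the block alone, or not. Cdkn2d at 1.03 is the one gene past the threshold in both fits, Cdk6 at 1.74 and Ccne2 at 0.55 are near background in uninduced cells, and the dashed line is the median of all genes, 0.09.

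Where a gene had several kept probes they were set side by side. Of the 48 genes, 34 had 1 kept probe and 14 several, and in 5 of the 14 (Ccnb1, Cdk1, Cdkn1a, Cdkn2a and E2f7) the probes differed in sign. Of the 67 kept probes, 1 passed when each probe was tested alone over 32811 probes, that of Cdkn2d.

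Other genes of the cycle, taken from lists of regulators, replication, mitotic and p53 pathway genes, are given for comparison. Of 111 listed genes 109 were tested. Ccna1 did not reach the filter, and no probe was mapped to Skp2, so it was not measured. Of the 109, 0 rose and 0 fell in limma without the block. At an unadjusted p under 0.05, 24 (22%, against 13.9% of all genes) were higher and 0 lower. With the block 7 rose (6.42%, against 9.37% of all genes) and 0 fell. These were the replication genes Mcm10, Rfc5, Tk1 and Dut, the passenger complex gene Incenp, and Sesn1 and Pmaip1 of the p53 pathway, which are named after their values were seen. The median difference was 0.34 over 34 replication genes, 0.37 over 32 mitotic genes, 0.23 over 28 regulators and -0.002 over 15 p53 pathway genes, beside 0.09 over all genes.

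Rfc5, a subunit of the clamp loader that places Pcna, was at 4.12, 4.17 and 3.98 on induced arrays 1 to 3, against 3.52, 3.56 and 3.26 on uninduced arrays 1 to 3, and differed by 0.64 (SE 0.15, limma adjusted p = 0.060, or 0.024 with the block). Foxm1, the transcription factor of late cell cycle genes, was at 1.92, 1.51 and 1.38 on induced arrays 1 to 3, against 1.57, 1.57 and 1.37 on uninduced arrays 1 to 3. The Foxm1 groups overlapped, and the difference of 0.10 (SE 0.18) had a limma adjusted p of 0.773. In the lists' brightest genes the differences were 0.22 for Cks1b, a kinase subunit, 0.54 for Orc6, of the origin recognition complex, 0.22 for Cdca8, of the passenger complex, and -0.22 for Gadd45g, and 0 of these 4 passed.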

How the data were processed

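Total RNA of 3 induced and 3 uninduced iRUNX1 cultures and 1 technical repeat array per group was measured on 1-colour arrays. Titles gave each array's group and replicate number. The labels call the replicates independent biological replicates. The authors deposited Feature Extraction output with spot intensity on a linear scale (processed signal, median signal and background), and flags of 0 or 1 as further columns that served as filters. Per the file headers the software was version 10.7.3.1, and the submitters' processing notes name 10.7.1.1 as well as limma. A deposited series table holds log2 values with unstated normalization. Only 2 of its 8 columns followed the array in their name (correlation at least 0.960 with the array tracked, over 19751 spots), and what it was centred on is unknown, so it served as an alternative in both readings.

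Control and outlier spots (114 to 246 per array) were left out, and 0 spots were saturated. All arrays were on 1 slide with 1 scan time. Of 59305 spots, 55.6% to 70.4% were well above background, and the number of arrays limits the precision. From each log2 processed signal the 75th percentile of its array was subtracted, and spots of 1 probe were averaged. A gene was named from its probe's RefSeq accession through the GRCm38.p6 gene table (26582 of 55681 probes had 1 symbol, 0 several, 29099 none). Probes well above background on all 3 arrays of a group were kept, and a gene took the values of its brightest one. A further 21 genes with a missing value were left out. The test was limma 3.58.1's lmFit and eBayes in R 4.3.3. Two-sided p-values were adjusted by Benjamini-Hochberg over 14498 genes, with 0.05 as the threshold. The fit with no block was tested on simulated data with independent noise on each array, which does not cover the fit with the block.

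Deviations from the group means of same-numbered arrays correlated at 0.65, 0.45 and 0.43 over genes, which is the basis for reading the replicate numbers from the titles as pairs. Members, gene lists and roles were chosen with earlier results of these data known. Every member is named, with full statistics where it passed with or without the block. Of the other lists the brightest gene of each, Foxm1 and, after their values were seen, the 7 genes that passed with the block are named, with values for Rfc5, whose unblocked adjusted p was the smallest. Alternatives were the background correction (normexp, offset 50, on the median signal because the files hold no mean signal column), quantile normalization, median centring, spike-in scaling, filters on dim probes, the mean of a gene's probes, the block, technical repeats averaged in, the deposited table and each array left out.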

Additional observations from a re-analysis of the deposited data

How the results depend on the processing

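Over the 22 alternative settings the call of Cdkn2d kept its direction and was lost in 8, with differences of 0.25 to 2.15. The 0.25, 1 of the 8 lost calls, came from the deposited table by column names, in which 6 of 8 columns tracked another array. Read by the array tracked, the table gave 0.91 and the call was kept. The lowest difference in the other settings was 0.89, without uninduced replicate 1. The number of the 48 genes called was 0 with quantile normalization, 0 with no filter on dim probes, 2 with median centring, 7 with the replicate number as a block, 6, 6 and 2 with the technical repeats averaged with replicates 1, 2 and 3, and 0 and 2 with the deposited table read by column names and by the array tracked. Chosen after seeing the data, the block without replicate 1, 2 or 3 gave 4, 2 and 5, all of them rises. Over all genes, 692 rose and 495 fell of 14503 without replicate 1. Without replicate 2, 649 rose and 509 fell of 14498, and without replicate 3, 1144 rose and 983 fell of 14514. Leaving out 1 array gave 0 (without induced replicate 2 or 3, or uninduced replicate 2 or 3) to 3 (without uninduced replicate 1). Over all genes, 915 were called, and 534 with no filter, 2346 with the block (all 915 among them) and 2127 with the block without replicate 3. Without replicate 1 or 2 the block called fewer, as the rises and falls above show. The technical repeats averaged with replicates 1 and 2 gave 1624 and 1620, and the table by column names 0 (limma, 0 also among the 48). With 1 array left out the count was 378 (without uninduced replicate 2) to 824 (without uninduced replicate 1). Rises and falls numbered 594 and 298 with quantile normalization and 721 and 213 with median centring. They numbered 602 and 291 with the technical repeats averaged with replicate 3, and 625 and 304 with the table by the array tracked. Of the other cell cycle genes, 0 were called in the unblocked limma fit, 2 with normexp, 1 with the mean of all probes, 7 with the block, 12, 4 and 1 with the technical repeats averaged with replicates 1, 2 and 3, 1 and 2 with the block without replicates 2 and 3, and 0 to 1 with 1 array left out. The median difference of the 48 genes was 0.36, and 0.52 with median centring, 1.49 with spike-in scaling and 0.042 with the table by column names. The cause was not tested, except that fewer arrays, fewer or more probes, and the added constant of a scaling are part of the alternative itself.

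Signs turned as follows, none of them in a gene past the threshold without the block other than the markers Tek, Eng, Was and Tnnc1. Normexp gave -0.29 for Ccne2, -0.021 for Aurkb and 0.064 for Mad2l1. Quantile normalization gave -0.019 for Ccnd3, -0.020 for Cdk1, -3.7e-04 for Cdk4, -0.10 for Cdkn1a, -0.044 for Cdkn1b, -0.032 for E2f7 and -0.032 for Cdt1. Median centring gave 0.16 for Mad2l1. Spike-in scaling gave 0.76 for Ccnd1, 0.70 for Ccnd2, 0.89 for Cdkn2c, 0.89 for Tyms, 1.12 for Mad2l1, 0.90 for Gadd45g and 0.21 for Eng. The mean of all kept probes gave -0.067 for Cdk1, -0.45 for Cdkn1a, -0.10 for E2f7 and -0.20 for Foxm1. The technical repeats averaged with replicate 1 gave -0.30 for Cdk2, -0.011 for Cdk4 and 0.20 for Mad2l1. Averaged with replicate 2 they gave -0.38 for Cdk2 and 0.12 for Mad2l1, and with replicate 3 -0.45 for Cdk2 and 0.10 for Mad2l1. The table by the array tracked gave -0.086 for Cdkn1a and -0.0052 for Cdt1.

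The table by column names, in which 6 of 8 columns tracked another array, gave -0.22 for Ccna2, 0.15 for Ccnd1, 0.084 for Ccnd2, -0.20 for Ccne1, -0.11 for Ccne2, -0.020 for Cdk4, -0.34 for Cdkn1a, -0.027 for Cdkn2b, 0.12 for Cdkn2c, -0.011 for E2f8, -0.14 for Rb1, -0.24 for Rbl1, -0.033 for Mcm5, -0.25 for Mcm7, -0.14 for Rrm1, -0.038 for Rrm2, -0.30 for Mki67, -0.10 for Top2a, -0.27 for Bub1, -0.17 for Bub1b, 0.060 for Mad2l1, -0.13 for Cenpe, -0.086 for Foxm1, -0.033 for Orc6, -0.14 for Tk1, -0.10 for Incenp, -0.59 for Pmaip1, 0.24 for Tek, 0.22 for Eng, -0.020 for Was and 0.056 for Tnnc1.

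The block without replicate 1 gave -0.080 for Cdk4, -0.13 for Cdkn1a, 0.17 for Mad2l1 and -0.025 for Foxm1, without replicate 2 -0.0039 for Cenpa, and without replicate 3 -0.023 for Ccnd3, -0.29 for Ccne2, -0.13 for Cdk2, -0.052 for Cdkn1a and -0.058 for Cdt1. With 1 array left out, differences ranged from -0.082 to 0.18 for Ccnd3, -0.0074 to 1.05 for Ccne2, -0.055 to 0.22 for Cdk2, -0.12 to 0.20 for Cdk4, -0.13 to 0.27 for Cdkn1a, -0.050 to 0.13 for Cdkn1b, -0.018 to 0.19 for E2f7, -0.062 to 0.27 for Cdt1, -0.15 to 0.15 for Mad2l1 and -0.058 to 0.21 for Foxm1. Where an arm had 2 arrays the fit pooled the spread. The dim probes of Cdk6 and Ccne2 lay near background in uninduced cells, which limits their differences.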
